A study of Mus musculus with 38 samples.

Results

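The respiratory chain genes were taken by name from the deposited gene table: Nduf genes of the a, b, c, s and v series, Cox4 to Cox8, Uqcr, Sdha to Sdhd, Atp5 and the mt-Nd, mt-Co, mt-Cytb and mt-Atp genes. A name with the pseudogene suffix (1 gene) was left out. This gave 97 of 25965 genes, 84 encoded in the nucleus and 13 in mitochondrial DNA (mtDNA). By complex the nuclear genes were 36 of complex I, all 4 of complex II, 8 of complex III, 19 of complex IV and 17 of the ATP synthase. Of the nuclear genes 3 matched by name alone: Cox4nb is a subunit of the endoplasmic reticulum membrane complex, and Atp5s and Atp5sl are distal assembly proteins rather than subunits. Ndufa4 is listed with complex I by its name and is now assigned to complex IV.

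The study measured poly(A) RNA of mouse embryonic stem cells under inhibition of MEK, GSK3 or both, to ask what each inhibitor does to the transcriptome and DNA methylome. The cells were the E14 (129/Ola) line, an XY line and the only line used, grown without feeders on gelatin. All media contained leukaemia inhibitory factor. S/L contained serum, and the other media shared serum-free N2B27 base, so each inhibitor is compared with S/L together with the loss of serum. The MEK inhibitor was PD03259010 (spelled as in the labels) at 1 µM in MEKi/L, the GSK3 inhibitor was CHIR99021 at 3 µM in GSK3i/L, and 2i/L combined them. Cells were sampled after 8 days, with 3 libraries per medium, and in GSK3i/L also after 24 days, with 2 libraries (replicates 2 and 3). This makes 14 libraries in 5 groups. The labels call them biological replicates without saying whether they were separate cultures, so p-values measure the spread between these samples. The 24 bisulfite samples were not analysed here.

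The respiratory chain passes electrons from NADH (complex I) and succinate (complex II) through ubiquinone to complex III, cytochrome c and complex IV, where oxygen is reduced. Complexes I, III and IV pump protons, and the ATP synthase uses the gradient. Complexes I, III, IV and the ATP synthase combine nuclear and mtDNA-encoded subunits, while complex II is wholly nuclear. Many accessory subunits are small proteins with short transcripts, whereas the catalytic subunits of complex II and of the ATP synthase head are large.

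Values are reads per 1000000 reads of a library (RPM), on a linear scale for levels and a log2 scale for differences. Scaling totals of 8 libraries were 10550000 to 15760000 reads, and 13458 to 14234 genes per library reached 0.5 RPM. The authors' values for S/L and GSK3i/L at 8 days (6 libraries) had been matched to 1 shared distribution, while the other 8 libraries were plain log2 RPM. Summed embryonic stem cell markers stood at 3432 RPM or more in every library, with all 10 tested. Summed fibroblast and mesenchymal markers (8 of 8 tested) ran from 139 to 283 RPM in GSK3i/L at 8 days and from 7.1 to 46.5 RPM in the other groups. Summed primitive endoderm markers (5 of 6 tested) ran from 2.9 to 25.1 RPM. Summed trophoblast markers (4 of 6 tested) ran from 32.5 to 112 RPM, highest in 2i/L. Most of the 2i/L sum was Tfap2c (71.7, 72.6 and 89.3 RPM) and Krt8 (31.9, 29.3 and 15.2 RPM). The other markers of this list (Elf5, Cdx2, Eomes and Hand1) stood at 7.09 RPM or less there. Summed neural markers (5 of 7 tested) ran from 28.0 to 232 RPM, with the highest library in MEKi/L. The part of these markers in the results was not tested. Centring each library on its median moved the median of all genes from 0.28 to −0.03 in 2i/L against S/L, from 0.17 to −0.0037 in MEKi/L against S/L and from 0.18 to −0.12 in 2i/L against GSK3i/L (log2). Where centring alters a count or a call of the members, its value is given.

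A library-wide feature moved with the nuclear members. For each library a long-minus-short score was formed, the mean log2 level of 40 long transcripts minus that of 40 short transcripts whose products work outside mitochondria, with no respiratory chain gene in either list. The score was −2.43, −2.07 and −1.99 in S/L. In 2i/L it was 0.76, 0.89 and 0.92. In MEKi/L it was 0.98 in replicate 1 but −1.23 and −0.83 in replicates 2 and 3. In GSK3i/L at 8 days it was 0.70 in replicate 1 but −1.03 and −1.96 in the others, and at 24 days it was −2.71 and −2.17. Replicate 1 of MEKi/L and of GSK3i/L at 8 days thus stood apart from its own group, beside 2i/L.

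The 5 libraries with a score above 0 also had the lowest mean levels of the 81 tested nuclear members. The mean was 7.42, 7.39 and 7.27 log2 RPM in S/L and 6.43, 6.48 and 6.45 in 2i/L. In MEKi/L it was 6.41 in replicate 1 and 7.35 and 7.20 in the others, and in GSK3i/L at 8 days 6.32, 7.08 and 7.48. At 24 days in GSK3i/L it was 7.74 and 7.61. Replicate 1 held the lowest of the 3 values in 69 of 81 nuclear members in MEKi/L and in 69 of 81 in GSK3i/L at 8 days. The median range of a nuclear member within a group was 1.00 in MEKi/L and 1.27 in GSK3i/L at 8 days, against 0.27 in S/L, 0.11 in 2i/L and 0.16 at 24 days (log2). Counts of members called are given with and without both replicate 1 libraries, a choice made after seeing the data, and the other gene lists with all libraries only. Whether RNA length or quality has a part in the nuclear members' levels was not tested by an independent measure.

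**Figure D1:**
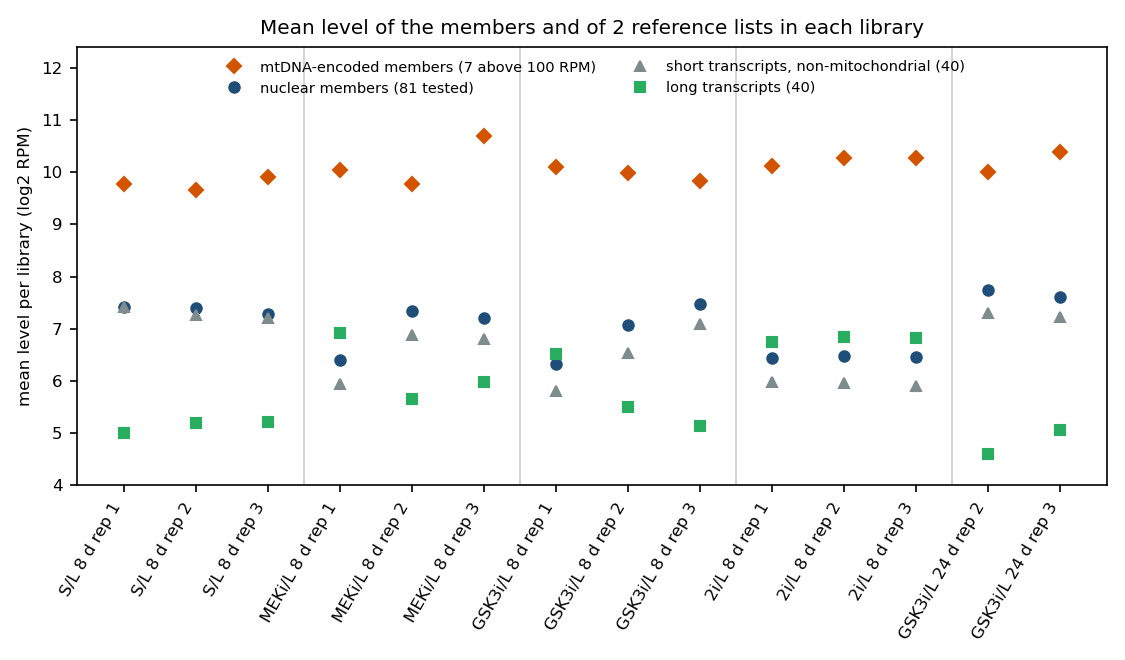
Mean log2 RPM (vertical axis) in each of the 14 libraries (horizontal axis, groups separated by grey lines) for the 7 abundant mtDNA-encoded members, the 81 tested nuclear members and the 40 long and 40 short transcripts. Nuclear members stand near 6.4 in all 3 2i/L libraries and in replicate 1 of MEKi/L and of GSK3i/L at 8 days, and at 7.08 or more in the other 9 libraries.

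The mtDNA-encoded members were read first as levels per length, since these genes have no introns and their coordinates (GRCm38) give the length. Of the 13 genes 7 were abundant, with medians over the 14 libraries of 2054 RPM per kilobase for mt-Nd1 (chrM:2751-3707), 1820 for mt-Co1 (chrM:5328-6872), 1438 for mt-Cytb (chrM:14145-15288), 773 for mt-Nd6 (chrM:13552-14070), 689 for mt-Nd2 (chrM:3914-4951), 491 for mt-Nd5 (chrM:11742-13565) and 417 for mt-Nd4 (chrM:10167-11544). The ranges over libraries overlapped between neighbours in this order, as for mt-Nd1 (1542 to 3547) and mt-Co1 (1191 to 2906). mt-Co1, the catalytic subunit of complex IV, ranked between 4 and 29 among all genes by RPM. mt-Nd6 is the only one of the 13 on the opposite strand. No source used here states whether reads were counted by strand, so the mt-Nd6 level may include reads of the other strand, which was not tested.

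The other 6 mtDNA-encoded members were near 0 and lie next to each other between positions 7013 and 10173. Median levels per kilobase were 2.96 RPM for mt-Atp6, 2.63 for mt-Co3, 2.36 for mt-Co2, 0.37 for mt-Nd3 and for mt-Atp8, and 0 for mt-Nd4l. The highest single value among them was 6.07 (mt-Co3), against a lowest of 329 among the 7 abundant genes. No read was counted for mt-Nd4l in 10 libraries, for mt-Atp8 in 6 and for mt-Nd3 in 2, and these 3 did not pass the filter on low values. The mouse nuclear genome is known to hold a near-identical copy of this stretch of mtDNA. No source used here states how reads that match both copies were counted, so the levels of these 6 genes are uncertain. Whether the copy extends into the neighbours mt-Co1 and mt-Nd4, which are among the 7 abundant genes, was not checked. The 7 abundant genes carry the comparison with the nuclear members.

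**Figure D2:**
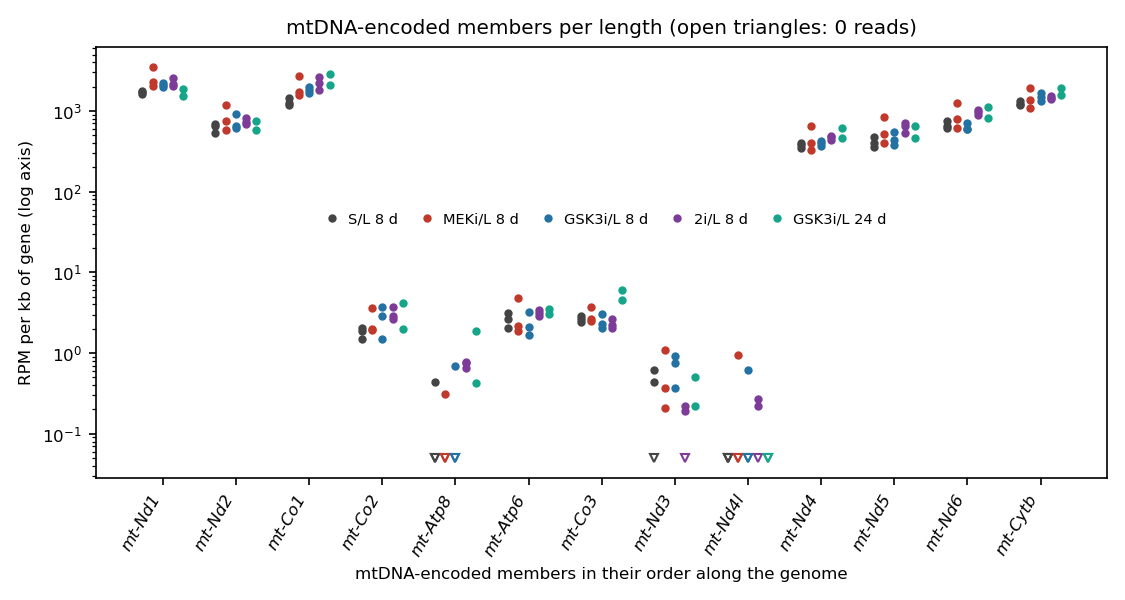
RPM per kilobase of gene (log axis) for the 13 mtDNA-encoded members in their order along the mitochondrial genome. Each point is 1 library, coloured by group, and open triangles mark libraries with 0 reads. The 6 neighbouring genes from mt-Co2 to mt-Nd4l stand at 6.07 or less and the other 7 at 329 or more.

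At most 1 mtDNA-encoded member passed the test in a comparison, and each that did was higher. A gene is called at a limma adjusted p (Benjamini-Hochberg over all 14980 tested genes) under 0.05, with no minimum fold, and 10 mtDNA-encoded members were tested. They had 1 of 10 called higher in MEKi/L against S/L, in 2i/L against S/L and at 24 against 8 days in GSK3i/L, where 26.1%, 39.1% and 4.3% of all tested genes were called higher. With so few members these shares are coarse. mt-Co1 stood at 1911, 1840 and 2241 RPM in S/L and at 2835, 3442 and 4039 RPM in 2i/L. All 3 2i/L libraries were above all 3 S/L libraries, and mt-Co1 rose by 0.77 ± 0.24 (log2 fold change ± SE, limma adjusted p = 0.013), the only mtDNA-encoded gene called in this comparison. The number called was 6 with only the 2 groups in the fit, 4 with quantile normalization, 3 without both libraries that stand apart and 0 with centring. Centring left the difference at 0.47 (limma adjusted p = 0.12), the score as a covariate at 0.73 (limma adjusted p = 0.10), and without 2i/L replicate 3 it was 0.65 (limma adjusted p = 0.064).

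mt-Nd1, a core subunit of the complex I membrane arm, stood at 1641, 1557 and 1689 RPM in S/L and at 2174, 1964 and 3394 RPM in MEKi/L. The groups did not overlap, and mt-Nd1 was called higher by 0.58 ± 0.22 (limma adjusted p = 0.047), the only one in MEKi/L against S/L. With centring the difference was 0.41 (limma adjusted p = 0.17), and without both libraries that stand apart 2 of the 10 were called higher. Leaving out any 1 of the 3 S/L libraries raised the limma adjusted p to between 0.083 and 0.12. Without MEKi/L replicate 1 it was 0.050 and without MEKi/L replicate 3, the highest library, the difference was 0.34 (limma adjusted p = 0.21). mt-Co3, one of the genes near 0, was called at 24 against 8 days in GSK3i/L (1.60, 1.82 and 2.36 RPM at 8 days, 3.57 and 4.76 RPM at 24 days; 1.11 ± 0.31, limma adjusted p = 0.030), and this call was lost without both libraries that stand apart (limma adjusted p = 0.078), without either 24-day library or without GSK3i/L 8-day replicate 1 or 2. limma called 0 mtDNA-encoded members in GSK3i/L against S/L (0 also at an unadjusted p under 0.05), 0 in 2i/L against MEKi/L (0 unadjusted) and 0 in 2i/L against GSK3i/L (1 unadjusted, higher), and 0 in these 3 also without both libraries that stand apart.

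The medians of the 7 abundant mtDNA-encoded members were 0.36 in MEKi/L, 0.19 in GSK3i/L and 0.40 in 2i/L against S/L (log2), beside 0.17, 0.06 and 0.28 for all tested genes. With centring they were 0.18, 0.19 and 0.09, and without both libraries that stand apart 0.40, 0.08 and 0.40. Against MEKi/L and GSK3i/L the medians in 2i/L were 0.07 and 0.22, and both fell below 0 with centring (−0.06 and −0.08). MEKi/L replicate 3 held the highest of the 3 values for 7 of 7 of these genes, and their summed share of all RPM was 1.59% there against 0.98% and 0.84% in the other MEKi/L libraries.

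Between S/L and 2i/L most nuclear members were lower in 2i/L. Of 81 tested nuclear members 49 were called lower and 10 higher. Among all 14980 tested genes 24.4% were called lower and 39.1% higher in this comparison, so the nuclear members had the larger share of lower calls and the smaller share of higher calls. Their median was −1.10 (log2), beside 0.28 for all genes. With centring the counts were 61 lower and 3 higher. Without both replicate 1 libraries that stand apart, which lie outside these groups and enter through the shared estimate of spread, they were 59 and 14. The short transcripts outside mitochondria had a median of −1.05 with 32 of 40 lower, and the long ones 1.83 with 35 of 40 higher. When the score entered the model as a covariate, limma called 0 nuclear members lower and 22 higher, with a median of 0.30. The score did not overlap between S/L and 2i/L, so medium and score cannot be told apart here.

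The ATP synthase spanned both directions. Atp5e, the epsilon subunit of the central stalk and one of the smallest, stood at 657, 643 and 574 RPM in S/L and at 72.5, 70.8 and 75.8 RPM in 2i/L. Its groups were far apart, and it fell by 3.09 ± 0.58 (limma adjusted p = 0.00043). Atp5l, subunit g of the membrane part, stood at 163, 132 and 116 RPM in S/L and at 18.5, 17.1 and 13.6 RPM in 2i/L, a fall by 3.06 ± 0.48 (limma adjusted p = 0.00012). Atp5a1, the alpha subunit of the catalytic head, went the other way, from 698, 997 and 978 RPM to 1442, 1458 and 1456 RPM. It rose by 0.72 ± 0.23 (limma adjusted p = 0.015), with centring the difference was 0.41 (limma adjusted p = 0.14), and without S/L replicate 1 the limma adjusted p was 0.077. Its partner Atp5b, the beta subunit, stood at 1536, 2144 and 2395 RPM in S/L and at 2596, 2666 and 2711 RPM in 2i/L and did not pass (0.42 ± 0.22, limma adjusted p = 0.10). In all 11 of 17 genes listed with the ATP synthase were lower and 1 higher, with a median of −1.10. The 17 include Atp5s and Atp5sl, which matched by name alone.

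Complex I had 21 of 36 nuclear genes lower and 3 higher, with a median of −0.99. Ndufa7, an accessory subunit near the NADH-binding module, stood at 997, 874 and 803 RPM in S/L and at 164, 166 and 173 RPM in 2i/L. It fell by 2.41 ± 0.50 (limma adjusted p = 0.00093), with no overlap. Ndufa11, an accessory subunit of the membrane arm, fell by 2.27, as did Ndufb6 of the same arm (405, 404 and 351 RPM against 77.3, 84.5 and 78.7 RPM). Genes called higher included Ndufa10 and Ndufv1. Ndufa10, an accessory subunit of unusual size, rose by 0.62 ± 0.16 and Ndufv1, which binds NADH and FMN, by 0.47 ± 0.18. With centring neither passed (limma adjusted p = 0.094 and 0.43), and Ndufv1 also did not pass without S/L replicate 1 or 3 or 2i/L replicate 2 or 3 (limma adjusted p = 0.073 to 0.12). Ndufs1, the largest core subunit, stood at 108, 142 and 146 RPM against 163, 164 and 164 RPM without passing (limma adjusted p = 0.14).

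Complex II divided by subunit. Sdha, the flavoprotein that oxidises succinate, stood at 120, 147 and 173 RPM in S/L and at 296, 305 and 327 RPM in 2i/L, and it rose by 1.09 ± 0.26 (limma adjusted p = 0.0027). Sdhb, the iron-sulphur subunit, was at 165, 167 and 155 RPM against 161, 169 and 169 RPM, groups that overlapped (0.04 ± 0.21, limma adjusted p = 0.89). The membrane anchors were lower: Sdhd fell by 1.17 ± 0.30 (288, 327 and 231 RPM to 126, 127 and 120 RPM) and Sdhc by 0.50 ± 0.19 (194, 206 and 190 RPM to 136, 141 and 140 RPM). Leaving out any 1 of the 6 libraries took Sdhc past the threshold (limma adjusted p = 0.0513 to 0.0791). The Sdha difference was 0.11 with the score as a covariate (limma adjusted p = 0.80), and those of Sdhd and Sdhc were 0.19 and 0.13.

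Complex III had 5 of 8 nuclear genes lower and 1 higher. Uqcrh, the acidic hinge protein that sits by cytochrome c1, stood at 670, 657 and 593 RPM in S/L and at 120, 96.1 and 83.0 RPM in 2i/L and fell by 2.70 ± 0.46 (limma adjusted p = 0.00021). Uqcrq, a small subunit, fell by 1.71. The core proteins moved apart. Uqcrc1 rose by 0.57 ± 0.18 (247, 304 and 295 RPM to 393, 429 and 432 RPM), a call lost with centring (limma adjusted p = 0.22) and without S/L replicate 1 (limma adjusted p = 0.065), and Uqcrc2 fell by 1.21 ± 0.31 (622, 585 and 560 RPM to 245, 261 and 259 RPM).

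Complex IV had 10 of 16 tested genes lower and 4 higher, counting Cox4nb, which matched by name alone. Cox7b, a small subunit, stood at 922, 806 and 745 RPM in S/L and at 159, 160 and 147 RPM in 2i/L and fell by 2.41 ± 0.54 (limma adjusted p = 0.0016). Cox4i1, the regulatory subunit of most tissues, fell by 1.89 ± 0.40. Cox5a, which binds to it on the matrix side, rose by 0.49 (241, 281 and 246 RPM to 368, 359 and 349 RPM). With centring Cox5a was not among the 3 nuclear members called higher. A set of 11 large catalytic or core subunits over all complexes, put together after the values were seen, had a median of 0.47, with 6 called higher and Uqcrc2 and Atp5c1 called lower. With centring its median was 0.16, with 1 higher and 3 lower. The set was chosen on these values and supports nothing about subunit size.

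**Figure D3:**
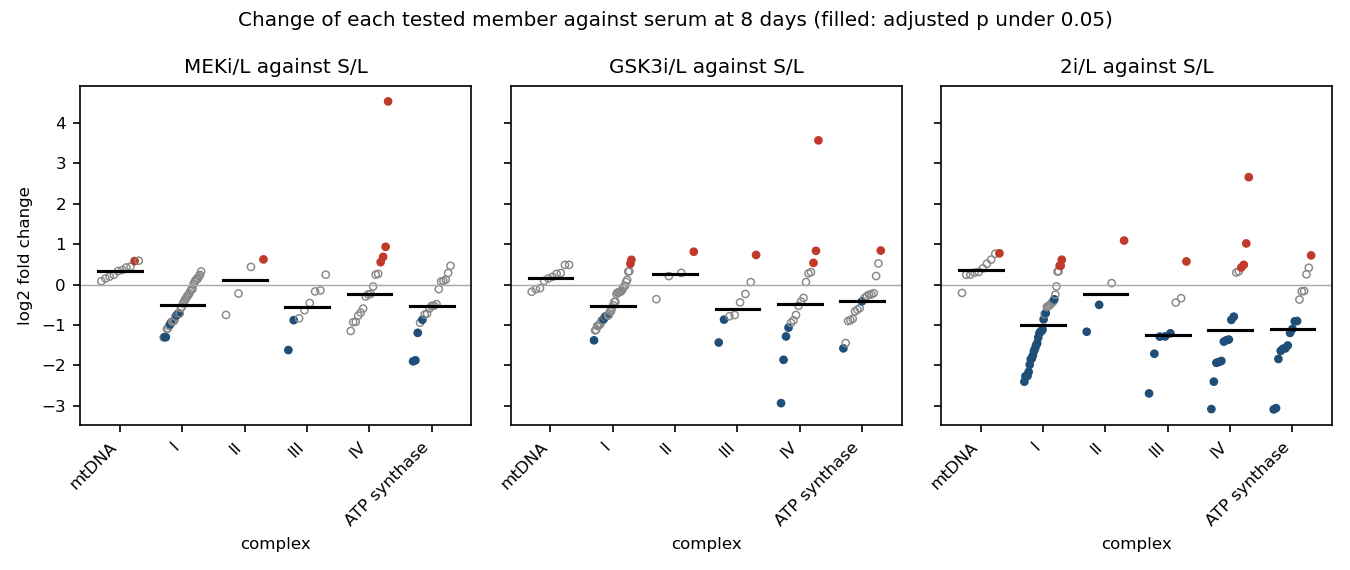
Log2 fold change (vertical axis) of each tested member against S/L at 8 days, by complex (horizontal axis), in MEKi/L, GSK3i/L and 2i/L. Filled points passed the test (red higher, blue lower), open points did not, and black bars are medians. In 2i/L the nuclear genes of complexes I, III, IV and the ATP synthase have medians near −1, with a few genes of each above 0.

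The 250 bases upstream of the starts of nuclear members were searched on both strands for motifs of factors linked to respiratory chain genes. Whether these factors have a part in the members' levels was not tested. RefSeq promoters (GRCm38.p6) matched 69 of 84 nuclear members and 11387 tested genes. The letters CCGGAAG, the core bound by ETS factors such as GABP, occurred in 11 of the 69 (15.9%) and in 13.4% of all. They occurred in 10 of 41 members called lower in 2i/L against S/L, in 0 of 7 called higher and in 1 of 20 not called. The consensus of NRF1, searched without mismatches, occurred in 4 of 69 (5.80%), against 1.55% of all. It was in 2 of 41 members called lower, in 0 of 7 called higher and in 2 of 20 not called. AAGATGGCG of YY1 was in 0 of 69 (1.08% of all) and TCAAGGTCA of the estrogen-related receptors in 1, Atp5g3 (0.22% of all). The windows of 3 of the members with the largest falls and of Sdha are shown 5′ to 3′ in the direction of the gene, all on the minus strand. They are Atp5l (chr9:44920743-44920992), Uqcrh (chr4:116075071-116075320), Ndufb6 (chr4:40279422-40279671) and Sdha (chr13:74350241-74350490). Capitals mark the ETS letters, here on the opposite strand.
Atp5l: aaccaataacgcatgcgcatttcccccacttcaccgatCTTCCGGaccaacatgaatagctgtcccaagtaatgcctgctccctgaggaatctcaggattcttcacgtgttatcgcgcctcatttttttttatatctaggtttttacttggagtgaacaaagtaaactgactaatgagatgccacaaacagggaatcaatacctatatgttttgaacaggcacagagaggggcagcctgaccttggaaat
Uqcrh: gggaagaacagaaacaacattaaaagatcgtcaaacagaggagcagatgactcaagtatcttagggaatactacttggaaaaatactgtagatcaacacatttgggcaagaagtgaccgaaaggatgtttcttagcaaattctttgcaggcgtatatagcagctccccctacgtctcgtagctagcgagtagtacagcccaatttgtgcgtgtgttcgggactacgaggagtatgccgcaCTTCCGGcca
Ndufb6: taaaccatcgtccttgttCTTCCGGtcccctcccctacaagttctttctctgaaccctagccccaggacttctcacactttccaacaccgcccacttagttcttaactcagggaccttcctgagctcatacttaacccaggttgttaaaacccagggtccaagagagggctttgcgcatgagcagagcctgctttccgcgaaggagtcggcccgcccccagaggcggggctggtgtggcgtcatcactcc
Sdha: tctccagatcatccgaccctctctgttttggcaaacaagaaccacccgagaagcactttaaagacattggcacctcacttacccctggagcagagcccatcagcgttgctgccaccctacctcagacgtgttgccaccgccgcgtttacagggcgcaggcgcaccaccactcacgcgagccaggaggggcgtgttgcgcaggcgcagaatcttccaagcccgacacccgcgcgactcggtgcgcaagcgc
The 3 genes that fell were shown because they hold the letters. Other members with large falls, such as Cox7b2, Cox7b, Ndufa7 and Ndufa11, do not hold them. The matches are of letters and not measured binding.

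In MEKi/L against S/L fewer nuclear members passed. Of 81 tested, 12 were lower and 5 higher, where 14.7% of all tested genes were called lower and 26.1% higher, so the share lower was close to the background. Their median was −0.47, beside 0.17 for all genes and −0.67 for the short transcripts outside mitochondria. With centring 24 were lower and 3 higher. Atp5l stood at 18.9, 57.6 and 46.2 RPM in MEKi/L, below every S/L library, and fell by 1.88 ± 0.48 (limma adjusted p = 0.0073). Atp5e (62.4, 281 and 265 RPM) fell by 1.90 and Uqcrh (109, 290 and 284 RPM) by 1.62, with replicate 1 the lowest in each. Other falls were those of Ndufa7 (1.30), Ndufb6 (1.30), Atp5f1 (1.20) and Uqcr11 (0.88). Sdhb rose by 0.62 ± 0.21, from 165, 167 and 155 RPM to 190, 311 and 265 RPM, and Cox5a by 0.69 ± 0.17, to 347, 478 and 418 RPM. Sdhb did not pass with centring (0.45, limma adjusted p = 0.13), nor without any 1 of the S/L libraries or MEKi/L replicate 2 or 3 (limma adjusted p = 0.064 to 0.12).

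These counts depended on single libraries. The number lower was 3 without MEKi/L replicate 1, 22 without MEKi/L replicate 2, and 5, 6 and 7 without S/L replicate 1, 2 and 3. The number higher was 3 without S/L replicate 3. Without MEKi/L replicate 1 the limma adjusted p of Uqcrh was 0.063, of Atp5e 0.088, of Uqcr11 0.12, of Ndufb6 0.22 and of Ndufa7 0.25. The last pair also missed the threshold without any 1 S/L library (limma adjusted p = 0.077 to 0.13), as did Uqcr11 and Atp5e without S/L replicate 1 (0.073 and 0.053) and Uqcr11 without S/L replicate 2 (0.066). Without both libraries that stand apart 18 were lower and 5 higher, and the median was −0.13. The score as a covariate gave 0 lower and 30 higher (limma).

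GSK3i/L against S/L, a comparison within the libraries matched to 1 distribution, had 12 nuclear members lower and 8 higher, where 14.4% of all tested genes were called lower and 16.8% higher. The share lower was near the background and the share higher (9.88%) below it, and the median was −0.43. This comparison and those of MEKi/L and 2i/L share the S/L libraries. The 8 members called higher were the isoforms Cox6a2 and Cox6b2, Cox7a2l, and 5 large subunits. Atp5a1 rose by 0.84 ± 0.23 (1888, 1888 and 1102 RPM in GSK3i/L), Uqcrc1 by 0.73 ± 0.18 (496, 566 and 364 RPM), Ndufv1 by 0.61 ± 0.18 (242, 269 and 187 RPM) and Ndufa10 by 0.52. Sdha rose by 0.81 ± 0.26 (302, 330 and 167 RPM), with replicate 3 inside the S/L range. Members lower included Atp5l (19.1, 47.6 and 102 RPM, by 1.58), Uqcrh (104, 267 and 475 RPM, by 1.44), Ndufa11 (by 1.38), Cox7c (by 1.29), Uqcr11 (by 0.87), Ndufa8 (by 0.86) and Atp5sl (by 0.41).

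The number lower was 3 without replicate 1 of GSK3i/L, 2 without replicate 2 and 41 without replicate 3. It was 2, 3 and 4 without S/L replicate 1, 2 and 3. The number higher was 4 and 3 without GSK3i/L replicate 1 and 2, and 3 and 5 without S/L replicate 1 and 3. Each of Atp5a1, Ndufv1, Ndufa10, Sdha, Atp5l, Uqcrh, Ndufa11, Uqcr11 and Ndufa8 missed the threshold without GSK3i/L replicate 1, without GSK3i/L replicate 2 and without S/L replicate 1 (limma adjusted p = 0.054 to 0.15), and Atp5sl missed it without any 1 S/L library or GSK3i/L replicate 2 (0.095 to 0.19). Without S/L replicate 2 those of Sdha, Atp5l, Uqcrh, Ndufa11 and Uqcr11 missed it (0.055 to 0.084), and without S/L replicate 3 those of Ndufa10, Ndufv1, Uqcrh, Ndufa11 and Uqcr11 (0.0514 to 0.0643). Uqcrc1 passed in each of these, but not with only the 2 groups in the fit (limma adjusted p = 0.072). That fit had 2 nuclear members higher and 3 lower. Without both libraries that stand apart 13 were lower and 10 higher, with a median of −0.11, and Uqcr11 missed the threshold (limma adjusted p = 0.053). The score as a covariate gave 4 lower and 20 higher, with Sdha (0.36, limma adjusted p = 0.16) and Ndufa10 (0.36, limma adjusted p = 0.064) no longer passing. The falls of Uqcrh, Ndufa8, Ndufa11 and Uqcr11 did not pass then either (limma adjusted p = 0.063 to 0.18).

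The inhibitor combination was compared with each inhibitor alone within serum-free medium. In 2i/L against MEKi/L limma called 1 of 81 nuclear members lower, Cox6a2, and 0 higher (23 and 3 at an unadjusted p under 0.05), where 6.11% of all tested genes were called lower and 6.81% higher. The median was −0.50. With centring 3 were lower. Without both libraries that stand apart 53 were lower and 4 higher, with a median of −0.78, and without MEKi/L replicate 1 alone 41 were lower and 2 higher. Without MEKi/L replicate 2 or 3, or 2i/L replicate 1 or 2, limma called 0 lower.

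In 2i/L against GSK3i/L 7 of 81 were lower and 0 higher (25 and 0 at an unadjusted p under 0.05), where 8.02% of all tested genes were called lower and 19.8% higher. The median was −0.45. The 7 were Sdhc (fell by 0.71 ± 0.19, limma adjusted p = 0.012), Uqcrc2 (by 0.97), Cox4i1 (by 1.14), Atp5e (by 1.65), Atp5l (by 1.48), Atp5f1 (by 1.02) and Atp5g3 (by 0.99). With centring 28 were lower. Without both libraries that stand apart 52 were lower and the median was −0.79, and without GSK3i/L replicate 1 alone 47 were. Leaving out GSK3i/L replicate 2 or 3 or 2i/L replicate 2 or 3 left 1 lower, and 2i/L replicate 1 left 2. The score as a covariate gave 1 lower, Sdhc (by 0.37), and 15 higher.

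In GSK3i/L nuclear members stood higher at 24 than at 8 days, with few calls. Of 81 nuclear members 9 were called higher and 1 lower, where 4.3% of all tested genes were called higher and 13.2% lower, and 71 of 81 differences were above 0. The median was 0.80, beside −0.19 for all genes and 0.72 for the short transcripts outside mitochondria. The 9 were Ndufa3, Ndufa6, Ndufb5, Ndufb11, Ndufc1, Ndufs7 and Ndufv3 of complex I, Cox6b2 of complex IV and Atp5s. Ndufc1, a membrane-arm accessory subunit, stood at 41.4, 66.1 and 94.4 RPM at 8 days and at 142 and 145 RPM at 24 days, and it rose by 1.17 ± 0.34 (limma adjusted p = 0.033). Ndufb11, of the same arm, rose by 1.13 ± 0.28 (57.8, 84.8 and 113 RPM to 175 and 184 RPM). Ndufs1 fell by 0.82 ± 0.21, from 192, 158 and 145 RPM to 93.4 and 93.3 RPM.

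Some members with larger differences did not pass. Cox7b stood at 159, 638 and 765 RPM at 8 days and at 1306 and 1456 RPM at 24 days, with no overlap (1.69 ± 0.60, limma adjusted p = 0.062). Without both libraries that stand apart 27 nuclear members were higher and 1 lower, with a median of 0.44. Without GSK3i/L 8-day replicate 3 there were 56 higher and 6 lower, without replicate 2 there were 3 higher, and without replicate 1 limma called 0 in either direction, as it did without either 24-day library and with the score as a covariate. The named calls, Ndufc1, Ndufb11 and Ndufs1 included, were therefore lost in each of these (limma adjusted p = 0.068 to 0.16 for the 3 genes when 1 library was left out), and Ndufc1 also without 8-day replicate 2 (0.060). The 24-day group has 2 libraries, and time cannot be told apart from the different treatment of the values at 8 and at 24 days.

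**Figure D4:**
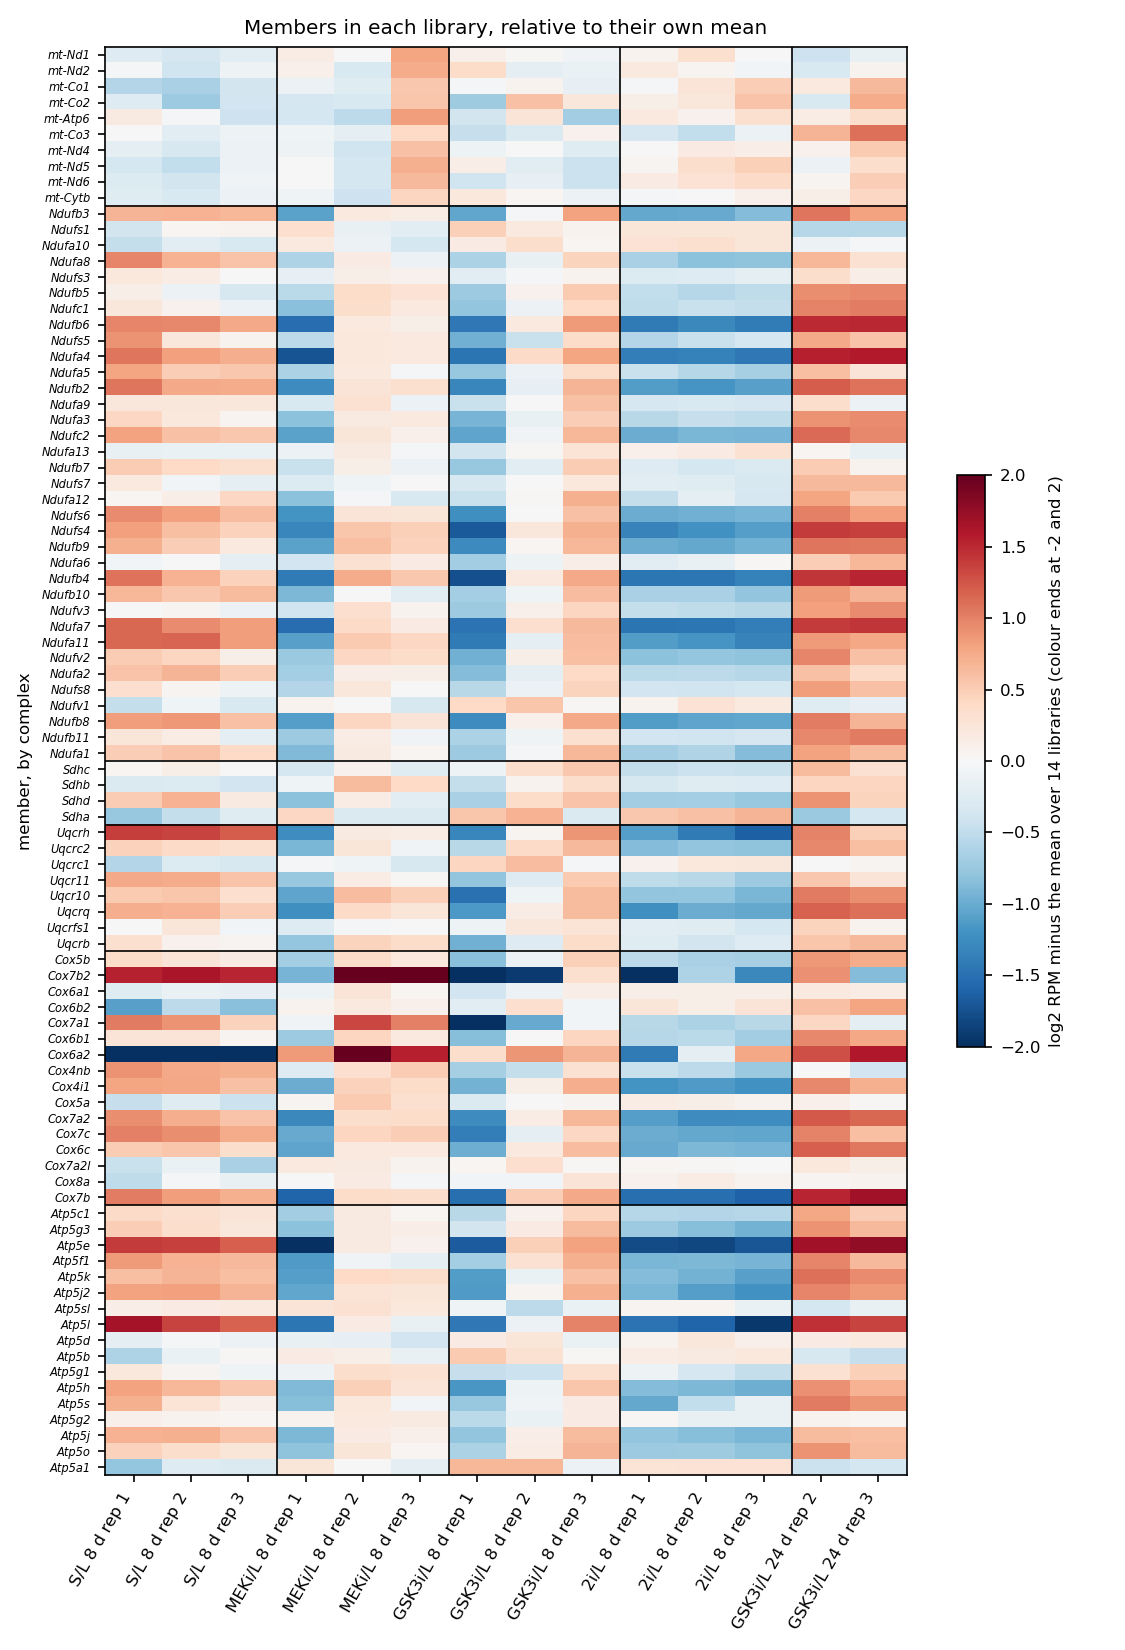
Log2 RPM of tested members in each of 14 libraries, minus the member's own mean (colour, red above and blue below, ending at −2 and 2), ordered by complex with black lines between complexes and groups. Most nuclear members are blue in 2i/L and in replicate 1 of MEKi/L and of GSK3i/L at 8 days and red in S/L and at 24 days. Cox6a2 is blue in S/L, and Sdha, Atp5a1 and Ndufs1 have colours opposite to the majority.

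Of the 4 tested tissue isoforms of complex IV, Cox6a2 and Cox6b2 were called higher and Cox7a1 and Cox7b2 lower in both 2i/L and GSK3i/L against S/L. Cox6a2, the heart and muscle isoform of subunit 6a, stood at 0.0918, 0 and 0.155 RPM in S/L. In MEKi/L it was at 1.46, 4.32 and 2.37 RPM, in GSK3i/L at 1.03, 1.49 and 1.30 RPM at 8 days and 1.97 and 2.47 RPM at 24 days, and in 2i/L at 0.305, 0.711 and 1.39 RPM. Every serum-free library was above every S/L library, and the gene was called higher in all 3 media (limma adjusted p = 2.5e-05, 0.0003 and 0.00081). The fitted differences of 4.54, 3.57 and 2.66 depend on the value at which 0 reads were deposited, and the S/L values were near 0. The S/L libraries were matched to 1 distribution, so their values cannot be turned into read numbers. It remained a minor form: the general isoform Cox6a1 stood at 184 to 288 RPM over all libraries and passed in none of the 6 comparisons.

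Cox6b2, the testis isoform of subunit 6b, stood at 24.7, 36.4 and 29.2 RPM in S/L. It was at 55.0, 59.9 and 55.6 RPM in MEKi/L, 45.2, 65.7 and 50.2 RPM in GSK3i/L and 62.0, 56.7 and 62.1 RPM in 2i/L. No serum-free library overlapped S/L, and Cox6b2 rose by 0.94 ± 0.17, 0.84 ± 0.17 and 1.02 ± 0.17 (limma adjusted p = 0.00088, 0.0031 and 0.00023). At 24 days it rose further, to 78.1 and 89.8 RPM (0.66 ± 0.20, limma adjusted p = 0.036; 0.54, limma adjusted p = 0.082, without both libraries that stand apart). That call was also lost without GSK3i/L 8-day replicate 1 or either 24-day library (limma adjusted p = 0.12 to 0.16). The differences against S/L were 1.02, 0.90 and 1.16 with the score as a covariate and still passed, and they passed under each scaling. The general isoform Cox6b1 fell by 0.79 in 2i/L against S/L (398, 397 and 346 RPM to 224, 228 and 206 RPM), a call lost without any 1 of the 6 libraries (limma adjusted p = 0.054 to 0.093), and with the score as a covariate it passed in the opposite direction (0.69, limma adjusted p = 0.0035).

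Cox7a1, the heart and muscle isoform of subunit 7a, stood at 32.7, 29.6 and 22.0 RPM in S/L and at 15.0, 40.1 and 32.0 RPM in MEKi/L, groups that overlapped (−0.05 ± 0.43). It was lower in both media with the GSK3 inhibitor: 3.66, 7.86 and 15.3 RPM in GSK3i/L (fell by 1.86 ± 0.43, limma adjusted p = 0.0062) and 10.8, 10.3 and 10.8 RPM in 2i/L (fell by 1.38 ± 0.43, limma adjusted p = 0.013). The fall in GSK3i/L was 0.86 with the score as a covariate and passed, while the difference in 2i/L was then 0.79 and passed as higher (limma adjusted p = 0.038). 2i/L against MEKi/L did not pass (−1.33 ± 0.43, limma adjusted p = 0.057). Cox7b2, another restricted isoform, was read at low levels, 1.41, 1.50 and 1.39 RPM in S/L, 0.254, 2.81 and 2.46 RPM in MEKi/L, 0, 0.128 and 0.603 RPM in GSK3i/L and 0.0762, 0.316 and 0.198 RPM in 2i/L. It was called lower in GSK3i/L and in 2i/L (limma adjusted p = 0.029 and 0.010), the former lost without any 1 of the S/L libraries or GSK3i/L replicate 1 or 2 (0.064 to 0.11).

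Cox7a2l, which helps to join complexes III and IV, stood at 54.1, 67.0 and 47.0 RPM in S/L and between 72.9 and 92.3 RPM in all serum-free libraries. It rose by 0.56, 0.54 and 0.42 in MEKi/L, GSK3i/L and 2i/L, though with centring it did not pass in MEKi/L (limma adjusted p = 0.067) or 2i/L (limma adjusted p = 0.54). The call was lost in MEKi/L without S/L replicate 3, in GSK3i/L without S/L replicate 1 or 3 or GSK3i/L replicate 2, and in 2i/L without S/L replicate 1 or 3 or any 1 of the 2i/L libraries (limma adjusted p = 0.057 to 0.13). Cox7a2, the general isoform of subunit 7a, fell by 1.94 in 2i/L against S/L. Cox8a stood at 122 to 209 RPM and passed in no comparison. The restricted isoforms Cox4i2, Cox8b and Cox8c were the 3 nuclear members that did not pass the filter. Cox8c was listed at 0.659, 0.215 and 0.614 RPM in S/L and at 0 in all other 11 libraries. Cox4i2, linked to low oxygen, was at 0.45, 1.40 and 1.19 RPM in S/L and at 0.403 RPM or less elsewhere, and Cox8b at 0.076 RPM or less throughout.

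The 3 genes for the ring subunit c of the ATP synthase, which encode the same mature protein, did not move alike. Atp5g3, the most abundant, fell by 1.20 ± 0.28 in 2i/L against S/L (944, 857 and 781 RPM to 403, 373 and 347 RPM). Atp5g1 (86.3, 77.0 and 69.5 RPM to 68.9, 58.5 and 53.0 RPM) and Atp5g2 (33.1, 32.3 and 31.8 RPM to 31.5, 27.8 and 27.8 RPM) did not pass (limma adjusted p = 0.14 and 0.42), though their groups did not overlap. The differences between the 3 genes were not tested.

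The balance of mtDNA-encoded to nuclear members was higher in 2i/L than in S/L. The mean log2 level of the 7 abundant mtDNA-encoded genes minus that of the 81 nuclear members was 2.36, 2.25 and 2.63 in S/L and 3.69, 3.79 and 3.82 in 2i/L, which did not overlap. In MEKi/L it was 3.64, 2.42 and 3.49, in GSK3i/L 3.78, 2.91 and 2.36 at 8 days and 2.26 and 2.79 at 24 days. Nuclear members held 2.57% to 2.79% of all RPM in S/L and 1.49% to 1.50% in 2i/L, and mtDNA-encoded members 0.74% to 0.87% and 1.01% to 1.18%. The 5 libraries with a score above 0 had a balance of 3.64 to 3.82 and the other 9 one of 2.25 to 2.91, other than MEKi/L replicate 3, whose balance of 3.49 came with a score of −0.83 and the highest mtDNA-encoded level (10.7 log2 RPM).

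Other gene groups of the mitochondrion and of the short transcript class were read beside the members. In 2i/L against S/L mitochondrial ribosomal proteins had 55 of 76 lower and 2 higher (median −1.07), cytosolic ribosomal proteins 60 of 84 lower and 4 higher (−1.0), and proteasome subunits 23 of 38 lower and 3 higher (−1.0). The medians of these lists were close to that of the nuclear members (−1.10). Among all tested genes 24.4% were called lower and 39.1% higher. Respiratory chain assembly factors had 26 of 48 lower and 7 higher (−0.76), with Cox18, which inserts a mtDNA-encoded complex IV subunit into the membrane, up by 1.17. Genes of mtDNA maintenance and transcription had 10 of 24 lower and 3 higher (−0.12), and those of coenzyme Q and cytochrome c 5 of 13 lower and 1 higher (−0.21), with the testis cytochrome c gene Cyct down (it fell by 1.87).

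Enzymes that feed the chain were read in the same way, with counts near the 39.1% higher and 24.4% lower of all tested genes except for more TCA enzymes higher. No test of their difference from the members was made. TCA cycle enzymes, without the complex II genes, had 9 of 18 higher and 4 lower in 2i/L against S/L (median 0.43), with the mitochondrial isocitrate dehydrogenase Idh2 up by 1.61 ± 0.24 and the fumarase Fh1 lower (it fell by 0.74 ± 0.23). Glycolysis genes had 8 of 20 higher and 5 lower (0.06), with the hexokinase Hk1 up by 3.65 ± 0.37 and the lactate exporter Slc16a3 lower (it fell by 2.84 ± 0.37). Regulators of mitochondrial biogenesis had 5 of 12 higher and 3 lower (0.37), with the coactivator Ppargc1b up by 2.36 ± 0.50 and Myc lower (it fell by 3.59 ± 0.56). In GSK3i/L at 24 against 8 days 12 of 20 glycolysis genes were lower and 0 higher (0 also at an unadjusted p under 0.05, median −0.90), with Slc16a3 lower (it fell by 2.05 ± 0.41). Among all tested genes 13.2% were called lower and 4.3% higher there.

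In MEKi/L and in GSK3i/L against S/L mitochondrial ribosomal proteins had more calls than the respiratory chain, with 37 of 76 lower in each (medians −0.68 and −0.69), and assembly factors had 17 and 15 of 48 lower. Cytosolic ribosomal proteins had 6 and 5 of 84 lower. Among all tested genes 14.7% and 14.4% were called lower, a larger share than among cytosolic ribosomal proteins. The differences between these lists were not tested.

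**Figure D5:**
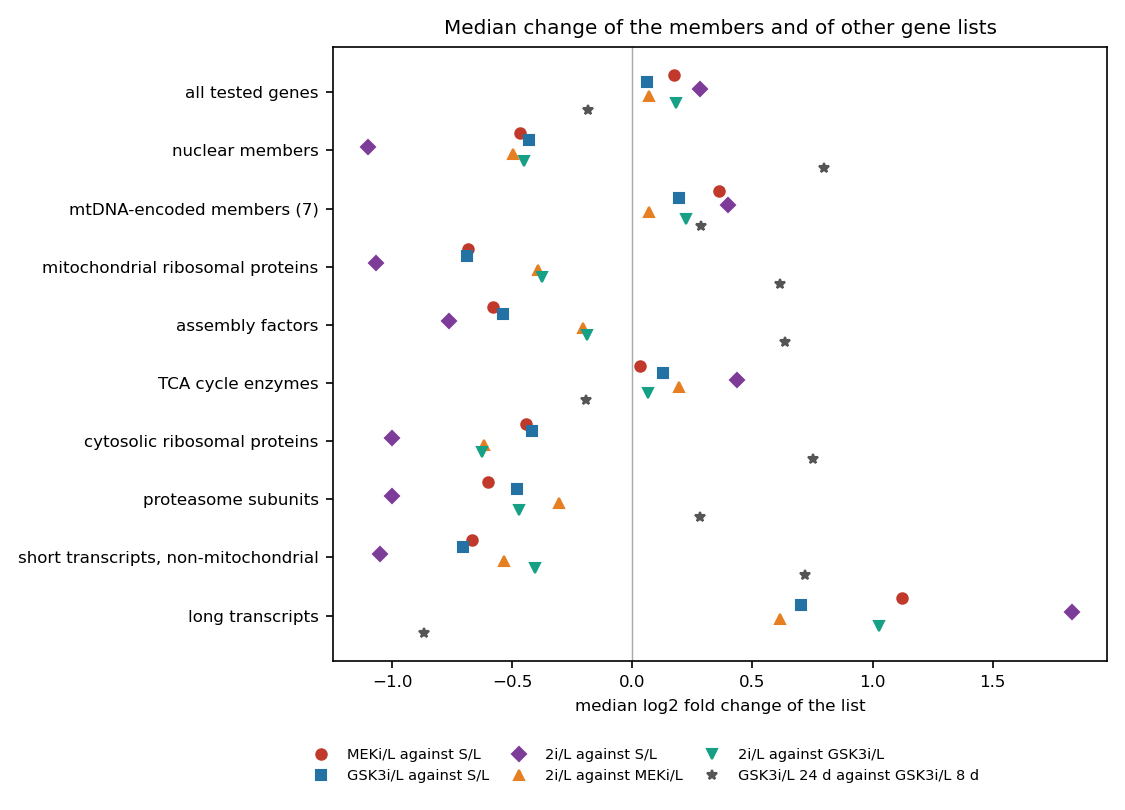
Median log2 fold change (horizontal axis) of all tested genes, the nuclear and mtDNA-encoded members and 7 other gene lists (vertical axis) in each of the 6 comparisons, marked by colour and shape. The nuclear members lie beside the ribosomal proteins and the short transcripts outside mitochondria in each comparison and opposite to the long transcripts, and the 7 mtDNA-encoded members lie between 0.07 and 0.40.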

How the data were processed

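Libraries were strand-specific, from poly(A) RNA, with 50-base single-end reads, per the labels' protocols. HISAT2, Trim Galore 0.6.5, the bisulfite tool Bismark 0.22.3 and the build GRCm38 are listed, per the submitters' processing notes. No source used here gives the counting options, strand setting or annotation. The authors deposited 1 table of log2 RPM for 25965 genes. In 8 libraries at least 99.96% of values were whole reads (within 0.02 of a read), with 0 reads at 0.9 of a read, and the other 6 had been matched to 1 distribution (sorted values above 2 RPM differed by at most 0.083). Both groups are plain in 2i/L against MEKi/L and both are matched in GSK3i/L against S/L, and 4 comparisons set plain beside matched libraries.

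The log2 values were tested with limma 3.58.1 in R 4.3.3 (trend and robust options), 14 libraries in 1 fit with group as the only term. The fit was also run on simulated data, with independent genes and the same spread of a gene in every group. Those data held no library-wide feature and no unequal spread, so they cannot show how the calls fare under these. Tested were the 14980 genes that reached 0.5 RPM in 3 libraries or more. They held 81 of 84 nuclear and 10 of 13 mtDNA-encoded members. Levels are linear RPM with 0 reads as 0. The members, lists and tests were chosen with earlier results of these data known. Named were all mtDNA-encoded and Sdh genes, tissue isoforms, members failing the filter, and per comparison and complex the 2 largest called rises and falls. Other members named as examples (Atp5b, Atp5f1, Atp5c1, Ndufs1, Uqcrc2, Uqcr11, Cox5a, and those listed where few were called) were chosen after their values were seen, as was the set of large subunits. The values of 1 member are not reported here. Replicate numbers were not used to pair the samples in the main fit. Alternatives were other scalings, no filter, log2(RPM + 0.5), a covariate (the long-minus-short score), a replicate block, only the 2 groups compared, and leaving out libraries.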

Additional observations from a re-analysis of the deposited data

How the results depend on the processing

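Medium and long-minus-short score moved together, so the score covariate removes part of any difference between media. The matched columns of S/L and GSK3i/L at 8 days limit the comparison of their balance of higher and lower genes with the other libraries. Genes near 0 are limited by depth. The planned correction for transcript length was not run, since no reference used here gave lengths for enough members. In what follows the cause of a moved count was not tested. Where libraries were left out, the fit also held fewer samples.

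With the score as a covariate the counts of nuclear members higher and lower were 30 and 0 in MEKi/L against S/L, 20 and 4 in GSK3i/L against S/L, 22 and 0 in 2i/L against S/L, 1 and 0 in 2i/L against MEKi/L, 15 and 1 in 2i/L against GSK3i/L, and 0 and 0 at 24 against 8 days, and limma called 0 mtDNA-encoded members in each. Of 64 named gene results 16 kept their call, 35 no longer passed and 13 changed sign. In 2i/L against S/L these were Atp5g3 (0.070), Cox4i1 (0.049), Cox6b1 (0.69), Cox7a1 (0.79), Cox7a2 (0.32), Cox7b (0.27), Cox7b2 (0.74), Ndufa7 (0.10), Sdhc (0.13), Sdhd (0.19) and Uqcrq (0.38), and in MEKi/L against S/L Ndufa7 (0.19) and Ndufb6 (0.17). Of these, Cox6b1 and Cox7a1 passed as higher. No other alternative reversed a named gene.

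With centring the nuclear counts were 3 higher and 24 lower in MEKi/L against S/L, 3 higher in 2i/L against S/L, 3 lower in 2i/L against MEKi/L and 28 lower in 2i/L against GSK3i/L, with 0 mtDNA-encoded members higher in MEKi/L or 2i/L against S/L. With trimmed mean scaling they were 3 and 24, 4 higher in 2i/L against S/L and 14 lower in 2i/L against GSK3i/L, again with 0 mtDNA-encoded members higher in both. Quantile normalization gave 2, 4 and 2 mtDNA-encoded members higher in MEKi/L against S/L, 2i/L against S/L and 2i/L against GSK3i/L, 14 nuclear members lower in the last and 2 lower at 24 against 8 days. With no filter 3 mtDNA-encoded members were higher in 2i/L against S/L, 1 higher and 1 lower in 2i/L against GSK3i/L and 0 at 24 days, with 20 nuclear members lower in 2i/L against GSK3i/L and 5 higher at 24 days. log2(RPM + 0.5) gave 3 nuclear members lower in 2i/L against MEKi/L.

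With only the 2 groups compared the nuclear counts were 21 lower in MEKi/L against S/L, 2 higher and 3 lower in GSK3i/L against S/L, 16 higher in 2i/L against S/L, 4 lower in 2i/L against MEKi/L, 2 lower in 2i/L against GSK3i/L and 0 in either direction at 24 days, and the mtDNA-encoded counts were 0 higher in MEKi/L, 6 higher in 2i/L against S/L and 0 at 24 days. Same-numbered replicates correlated between −0.31 and 0.23 in their deviations, not all over 0.1, so the main fit did not pair samples by number. Such correlations cannot show that samples of the same number were handled separately. MEKi/L against GSK3i/L, the groups whose replicate 1 libraries stand apart, was not among the comparisons checked. With the replicate block 21 nuclear members were lower in MEKi/L against S/L, 3 in 2i/L against MEKi/L and 16 in 2i/L against GSK3i/L, 1 was higher and 0 lower at 24 days, and 2 mtDNA-encoded members were higher in 2i/L against S/L.

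Without both libraries that stand apart, an alternative chosen after seeing the data, nuclear members were 4 higher and 53 lower in 2i/L against MEKi/L, 52 lower in 2i/L against GSK3i/L and 27 higher at 24 days, and mtDNA-encoded members 2 higher in MEKi/L against S/L, 3 in 2i/L against S/L and 0 at 24 days. Leaving out 1 library at a time, nuclear members ranged from 3 to 5 higher and 3 to 22 lower in MEKi/L against S/L, 3 to 10 and 2 to 41 in GSK3i/L against S/L, 5 to 10 and 41 to 47 in 2i/L against S/L, 0 to 2 and 0 to 41 in 2i/L against MEKi/L, 0 and 1 to 47 in 2i/L against GSK3i/L, and 0 to 56 and 0 to 6 at 24 days. The 5 in 2i/L came without S/L replicate 1. mtDNA-encoded members higher ranged from 0 to 2 in MEKi/L against S/L and from 0 to 1 in 2i/L against S/L and at 24 days.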
